A study of Ovis aries with 14 samples.

Results

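The inhibin, activin, follistatin and FSH receptor genes form the hormone loop between ovary and pituitary, and 10 gene names were looked up in the deposited tables: FSHR, INHA, INHBA, INHBB, FST, FSTL3, ACVR2A, ACVR2B, ACVR1B and TGFBR3. Of these, 9 were listed by name in each of the 3 tables, out of 16513 genes in the fetal table, 15863 in adult table I and 16074 in adult table II. INHBB, which codes for the βB subunit, was not listed by name in any of them and is stated here as not measured. All 9 listed genes passed the filter on low values, a mean of at least 10 normalized counts, in every table. Nearly all deposited genes did, since only 0, 7 and 10 genes of the fetal table and adult tables I and II had a lower mean. A name was given for 12585, 12205 and 12303 genes of these tables, so a gene not listed by name may be present without one.

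RNA from whole frozen ovaries of wild-type Suffolk sheep was sequenced in 14 samples. There were 4 adult testosterone and 4 adult control samples at year 2, and 3 fetal testosterone and 3 fetal control samples at day 90 of gestation. Mothers of the testosterone groups were injected intramuscularly with testosterone propionate in cottonseed oil between days 30 and 90 of gestation. The labels do not say what the control mothers received, at which stage of the cycle the adults were sampled, or which samples, if any, shared a mother or an animal. The tests treat each library as independent.

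Inhibins are made of the α subunit, coded by INHA, joined to a β subunit, and activins are made of β subunits alone; INHBA codes for the βA subunit. Activin binds a type II receptor, ACVR2A or ACVR2B, which brings in the type I receptor ACVR1B, and the signal then reaches the nucleus through SMAD proteins. Follistatin (FST) and the related FSTL3 bind activin and keep it from its receptors, while betaglycan, coded by TGFBR3, helps inhibin to hold the type II receptor and so blocks activin. In the ovary the follicle's granulosa cells carry the FSH receptor, and inhibin from these cells restrains FSH release by the pituitary.

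Recovered depth was 22.6 to 33.4 M reads per library. Library values correlated at r = 0.971 to 0.985 across genes among the fetal libraries and at 0.838 to 0.975 among the adult ones. Adult table I holds testosterone 4, 5 and 6 against control 4, 5 and 6, and adult table II holds testosterone 5, 6 and 7 against control 4, 6 and 7. The 2 adult comparisons share 4 libraries, controls 4 and 6 among them, and are not independent. The labels list 4 adult controls and the series text counts 3. Values are DESeq2-normalized counts unless a sentence says otherwise, and counts were not divided by gene length, so levels are compared between libraries and not between genes.

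In fetal ovaries FST and FSHR had higher values in all 3 testosterone libraries than in any of the 3 controls, and INHA, INHBA and FSTL3 had higher means with overlapping groups. ACVR2A, ACVR2B, ACVR1B and TGFBR3 had log2 changes between -0.22 and 0.01. None of the 9 genes passed an adjusted p of 0.05. The comparison asked how exposure to testosterone in the womb was reflected in the ovary at the end of the exposure. In whole-ovary RNA, fewer cells of a type and less RNA per cell cannot be told apart.

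For the hormone subunits, INHA had 1192, 1040.3 and 1462 normalized counts in testosterone 1, 2 and 3, and 794, 869.8 and 1252 in control 1, 2 and 3. Control 3 lay above testosterone 1 and 2, so the groups overlapped. The means were 1231 ± 213 in testosterone and 972 ± 246 in control ovaries (SD, n = 3 each). INHBA had 1384, 1657 and 1051 normalized counts in testosterone 1, 2 and 3, and 1137, 990.1 and 1029 in the controls. Testosterone 1 and 2 stood above every control, while testosterone 3 lay among the controls. The log2 changes were 0.36 (SE 0.19, limma adjusted p = 0.588) for INHA and 0.35 (SE 0.16, limma adjusted p = 0.537) for INHBA.

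For the activin-binding proteins, FST had 215, 257 and 269 normalized counts in testosterone 1, 2 and 3, and 149.6, 182 and 152 in control 1, 2 and 3. The lowest testosterone library was above the highest control. The means were 247 ± 28.6 in testosterone and 161 ± 18.1 in control ovaries (SD, n = 3 each), a log2 change of 0.61 (SE 0.17) with an unadjusted p of 0.00706 and an adjusted p of 0.333 by limma. DESeq2 on the recovered reads gave FST an adjusted p of 0.113, and the authors' deposited table gives it 0.105. FSTL3 had 252, 423 and 361 normalized counts in testosterone 1, 2 and 3, and 285, 203.5 and 275 in the controls. Testosterone 1 lay below 2 of the 3 controls, and the other testosterone libraries lay above all of them. The FSTL3 log2 change was 0.42 (SE 0.23, limma adjusted p = 0.585).

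FSHR was covered by few reads in the fetal ovary. It had 36.3, 41.5 and 26.4 normalized counts in testosterone 1, 2 and 3, and 16.0, 8.81 and 19.99 in control 1, 2 and 3. These rest on 37, 41 and 28 reads in the testosterone libraries and on 15, 9 and 20 reads in the controls. All testosterone libraries were above all controls. The counting intervals still met, since the 28 reads of testosterone 3 carry an exact 95% Poisson interval of 18.6 to 40.5 and the 20 reads of control 3 one of 12.2 to 30.9, for counting error only. The means were 34.7 ± 7.66 in testosterone and 14.9 ± 5.67 in control ovaries (SD, n = 3 each). The FSHR log2 change was 1.21 (SE 0.40), with an unadjusted p of 0.0153 and an adjusted p of 0.398 by limma. The authors' deposited table gives FSHR an unadjusted DESeq2 p of 0.0273 and no adjusted p.

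Among the receptors, the type II receptor gene ACVR2A had 770.4, 825 and 714 normalized counts in testosterone 1, 2 and 3, and 720.3, 768 and 901 in the controls. ACVR2B, the other type II receptor, had 222, 255 and 215 in testosterone and 248, 289 and 209.9 in control libraries. The type I receptor ACVR1B had 409.7, 447 and 479.7 in testosterone and 487, 595 and 477 in control libraries. Groups overlapped in each, for ACVR1B only because testosterone 3 stood just above control 3. TGFBR3, which codes for betaglycan, had 5442, 5604 and 5681 in testosterone and 6234, 4591 and 5881 in control libraries, the controls spanning the testosterone values. The log2 changes were -0.05 for ACVR2A, -0.10 for ACVR2B, -0.22 for ACVR1B and 0.01 for TGFBR3, with limma adjusted p from 0.637 to 0.978.

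**Figure D1:**
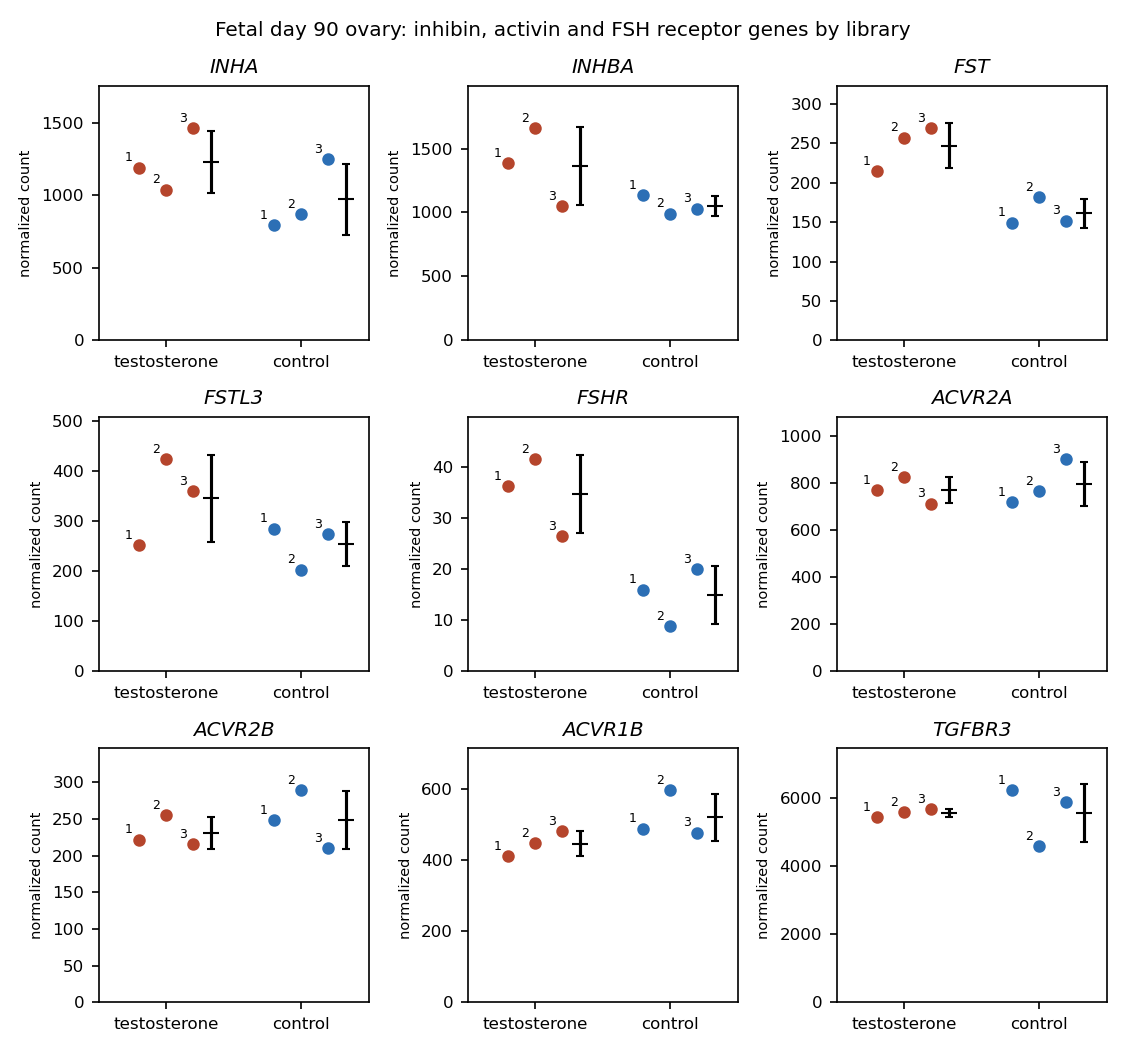
Normalized counts of the 9 genes in each fetal library, with testosterone on the left of each panel and control on the right; numbers beside points are replicate numbers, bars are the mean with SD (n = 3 each) and each axis starts at 0. FST and FSHR are the panels in which all 3 testosterone points lie above all 3 control points.

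Of the 9 genes, 0 passed the adjusted p of 0.05 in the fetal comparison by limma, edgeR or DESeq2, against 0.0182%, 0.0242% and 1.58% of all 16513 genes by the same tools. An unadjusted limma p under 0.05 was reached by 2 of the 9, both higher in testosterone, against 9.76% of all genes. By edgeR and by DESeq2 it was reached by 3 of the 9, all higher, and the share of all genes was not counted for these tools. For INHBA the authors' deposited table gives an unadjusted DESeq2 p of 0.0368 and an adjusted p of 0.403. The 2 genes whose groups did not overlap with testosterone higher stand beside 8.88% of all genes with that pattern, and 0 of 9 had testosterone lower throughout, against 7.46% of all genes. Of the 9 log2 changes 6 were above 0, with a median of 0.35, while the median over all genes was -0.019 and 46.6% of genes were above 0.

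The wider pathway in the fetal ovary showed no called gene. Of 33 listed activin and TGF-β pathway genes 24 were measured, with 8 log2 changes above 0, 16 below 0 and a median of -0.077. WFIKKN2, which codes for a secreted binder of activin-related ligands, had a log2 change of 0.61 (SE 0.18, limma adjusted p = 0.339). The ubiquitin ligase gene SMURF1 was at -0.41 and the TGF-β receptor genes TGFBR1 and TGFBR2 at -0.32 and -0.24, with limma adjusted p from 0.465 to 0.562. Of 26 listed FSH signalling and response genes 21 were measured, 11 above 0 and 10 below 0, with a median of 0.016. PRKAR2B, a regulatory subunit of the cAMP-dependent kinase downstream of FSHR, was at 0.41 (SE 0.11, limma adjusted p = 0.319), and CREB1, a transcription factor that the kinase activates, was at -0.27 (limma adjusted p = 0.542).

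Markers of other cell types are given beside these values. The 9 measured granulosa markers summed to 30502 to 38512 normalized counts in testosterone and 28023 to 32745 in control libraries, with 6 of 9 log2 changes above 0 and a median of 0.093; MRO was at 0.60 and HSD17B1, an enzyme of oestrogen synthesis, at 0.62 (limma adjusted p = 0.417 and 0.454). A sum is led by the most abundant genes. By the mean of log2 values, the granulosa list deviated by -0.16, 0.11 and 0.28 in testosterone 1, 2 and 3. In control 1, 2 and 3 it deviated by -0.14, 0.03 and -0.12, so testosterone 1 was lowest and the groups overlapped. FOXL2, AMH and CYP19A1, defining granulosa genes, were not listed by name. The 7 smooth muscle markers were all above 0, with a median of 0.70, and summed to 51375 to 76361 in testosterone against 35760 to 47044 in control libraries, without overlap. Of these 7, 0 passed by limma and 3 by DESeq2. Of 10 germ cell and meiosis markers 9 were below 0, with a median of -0.35 and sums of 12474 to 20065 in testosterone against 14441 to 23961 in control libraries. CYP17A1, a theca enzyme of androgen synthesis, ranged from 6.08 to 17.0 in testosterone and from 44.0 to 208 in control libraries. CYP11A1, which starts steroid synthesis from cholesterol, ranged from 35.5 to 87.8 in testosterone and from 174 to 511 in control libraries. Other genes of this kind overlapped: INSL3, a theca hormone, at 136 to 178 in testosterone and 144 to 287 in control libraries. STAR, which carries cholesterol into mitochondria, was at 700 to 976 and 768 to 914. Of 6 theca markers 5 were below 0, and of 9 luteal markers 8, each with a median of -0.21. In each of these lists DESeq2 called 1 gene lower and limma 0. Of 6 stromal markers 4 were above 0, with a median of 0.21 and 2 called higher by DESeq2. All 7 macrophage markers were below 0, with a median of -0.21 and 0 called by limma or DESeq2, and their sums of 3076 to 4093 in testosterone and 3543 to 4846 in control libraries overlapped. Of 5 epithelial markers 2 were above 0, with a median of -0.023; KRT8, a keratin gene, was at 0.91 (limma adjusted p = 0.279) and was the 1 called higher by DESeq2. The granulosa and germ cell lists held 0 genes called by limma or DESeq2. The part of these markers in the values of FST and FSHR was not tested.

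In adult ovaries the members separated by library far more than by treatment. The comparison asked whether the prenatal exposure was still reflected at year 2. FSHR, INHA and FST spanned a 478-fold, 95.8-fold and 38.9-fold range in RPM over the 8 libraries, and both groups held high and low libraries. RPM is reads per M reads in the 15175 genes listed in all 3 tables. Control 4 was the lowest library for each of these genes, and its FSHR value rested on 4 reads. Over the adult testosterone libraries alone FSHR ranged from 3.70 to 40.4 RPM. INHBA, ACVR1B and ACVR2A spanned 2.11-fold, 2.02-fold and 1.76-fold ranges. No member passed an adjusted p of 0.05 in either table. The values that follow put all 8 adult libraries on a common scale with DESeq2 size factors, while the log2 changes were fitted with limma on log2(value + 1) within each deposited table and are not the authors' own fold changes. A limma change compares means of logs, so a very low library weighs more in it than in a mean of counts.

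INHA had 1498, 673, 2826 and 321 normalized counts in testosterone 4, 5, 6 and 7, and 135, 5012, 398 and 9215 in control 4, 5, 6 and 7. The control group held both the lowest library and the 2 highest. INHBA had 1638, 938, 904 and 1119 in testosterone 4, 5, 6 and 7, and 2367, 1065, 1041 and 1789 in the controls. Controls 4 and 7 were above every testosterone library, while controls 5 and 6 lay among them. Mean INHA was 1652 ± 1080.1 in testosterone and 1839 ± 2718 in control libraries of table I, and 1286 ± 1369 in testosterone and 3259 ± 5180.5 in control libraries of table II (SD, n = 3 each). The limma log2 change of INHA was above 0, at 1.11 (SE 1.28) in table I and 0.10 (SE 1.55) in table II. On recovered reads it was -0.16 by edgeR and -0.15 by DESeq2 in table I, and -1.36 by edgeR and -1.34 by DESeq2 in table II, so its direction depended on the method. The INHBA change by limma was -0.31 (SE 0.41) in table I and -0.73 (SE 0.34, unadjusted p = 0.064 by limma) in table II.

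FST had 979.9, 899, 1839 and 538 normalized counts in testosterone 4, 5, 6 and 7, and 174, 2736, 1827 and 4822 in control 4, 5, 6 and 7. Controls 5 and 7 lay above all testosterone libraries, control 6 lay just below testosterone 6, and control 4 lay below them all. FSTL3 had 1037, 155, 183 and 797 in testosterone 4, 5, 6 and 7, and 1700.3, 368, 895 and 212 in the controls. Its highest library, control 4, was the lowest for FST. Mean FST was lower in testosterone in both tables, at 1228 ± 518 in testosterone and 1569 ± 1290 in control libraries of table I, and at 1103 ± 678 in testosterone and 2287 ± 2360.2 in control libraries of table II (SD, n = 3 each). The FST log2 change was 0.29 (SE 1.001) by limma and -0.35 by both edgeR and DESeq2 in table I. In table II it was -0.26 (SE 1.16) by limma, -1.07 by edgeR and -1.05 by DESeq2. The FSTL3 change by limma was -1.42 (SE 0.86) in table I and -1.27 (SE 0.91) in table II.

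FSHR had 169.8, 620.1, 1020.1 and 97.5 normalized counts in testosterone 4, 5, 6 and 7, and 4.72, 705, 521 and 1612 in control 4, 5, 6 and 7. Control 4 rested on 4 reads, with an exact 95% Poisson interval of 1.09 to 10.2 reads, whereas every other adult library held at least 86. The other 3 controls lay within or above the range of the testosterone libraries. Mean FSHR was 597 ± 422 in testosterone and 410.3 ± 362 in control libraries of table I, but 586 ± 467 in testosterone and 716 ± 822 in control libraries of table II (SD, n = 3 each). The FSHR log2 change in table I was 1.88 (SE 1.84) by limma and 0.54 by both edgeR and DESeq2. In table II it was 1.24 (SE 2.05) by limma, -0.31 by edgeR and -0.29 by DESeq2, so its direction depended on the method. Control 4 is in the control group of both tables.

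Several of these values depended on control 4. With the 8 libraries joined and control 4 left out, a setting chosen after the values were seen, the log2 change was -1.39 for FSHR, -1.43 for INHA and -1.58 (SE 0.46) for FST, compared with 0.41, -0.36 and -0.57 with it. FST then had an unadjusted limma p of 0.00903 and an adjusted p of 0.9999, and 3 of 4 testosterone libraries lay below all 3 remaining controls. Control 4 was the lowest library for FSHR, INHA and FST, so leaving it out had to lower their changes. The unadjusted p of FST is therefore no test of a treatment effect, and the share of all genes at that p was not counted. FSTL3 was at -0.07 without control 4 and at -0.58 with it.

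The receptors of activin and the inhibin co-receptor spanned 1.76-fold (ACVR2A) to 4.40-fold (TGFBR3) ranges in RPM, less than INHA, FST, FSTL3 or FSHR. ACVR2A had 391, 551, 419 and 340.3 normalized counts in testosterone 4, 5, 6 and 7, and 449, 442, 531 and 343 in control 4, 5, 6 and 7. ACVR2B had 177, 296, 327 and 175 in testosterone and 152, 264, 195 and 442 in control libraries, and ACVR1B had 328, 452, 451 and 359.6 in testosterone and 397, 557, 653 and 325 in control libraries. The groups overlapped in each of these receptor genes. TGFBR3 had 3431, 12251, 9607 and 3024 in testosterone and 6799.9, 5954, 3491 and 8405 in control libraries, so that testosterone held both the highest and the lowest library. The log2 changes in tables I and II were -0.08 and -0.02 for ACVR2A, 0.37 and 0.12 for ACVR2B, -0.38 and -0.06 for ACVR1B, and 0.49 and 0.28 for TGFBR3. With the 8 libraries joined ACVR2B was at -0.053 and TGFBR3 at 0.0099.

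**Figure D2:**
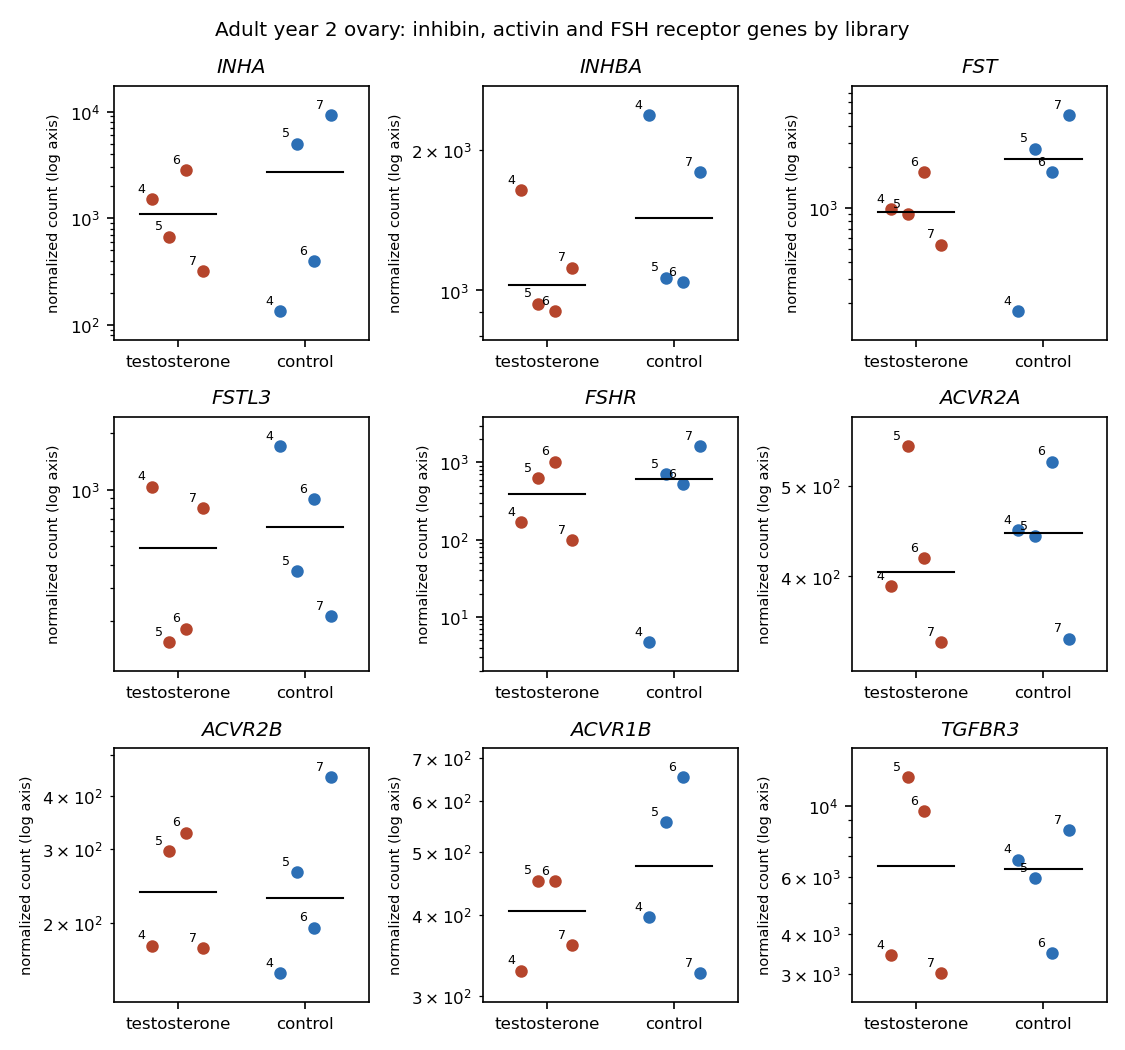
Normalized counts of the 9 genes in the 8 adult libraries joined on a common scale (log axes), with testosterone on the left of each panel and control on the right; numbers beside points are replicate numbers and lines are group medians. Control 4 is the lowest point for INHA, FST and FSHR and the highest for INHBA and FSTL3.

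In adult table I, 0 of the 9 genes passed the adjusted p of 0.05, against 0.00631% of all genes by limma, 0% by edgeR and 0.0252% by DESeq2. In adult table II, 0 of the 9 passed, against 0.00623% by limma, 0% by edgeR and 0.0311% by DESeq2. The authors' deposited table II gives INHA neither a p nor an adjusted p, so it holds no test result for that gene. An unadjusted limma p under 0.05 was reached by 0 of 9 in table I, against 0.637% of all genes, and by 0 of 9 in table II, against 0.486%. By DESeq2 and by edgeR 1 of the 9, INHBA in table II, was lower in testosterone at an unadjusted p under 0.05, where 1.52% of all genes by DESeq2 and 0.884% by edgeR were lower at that p. With the 8 libraries joined, 0 of 9 passed, against 0.0127% of all genes, and 0 had an unadjusted p under 0.05, against 0.806%.

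The groups overlapped for all 9 genes in table I, in table II and in the joined libraries. Genes with testosterone above or below control throughout made up 1.65% and 1.92% of all genes in table I, 1.05% and 1.56% in table II, and 0.33% and 0.374% in the joined libraries. The median log2 change of the 9 genes was 0.29 in table I, with 5 above 0, and -0.016 in table II, with 4 above 0, by limma. By edgeR and by DESeq2 3 were above 0 in table I and 2 in table II. Over all genes the limma median was -0.011 and -0.0074, with 48.5% and 49.0% above 0.

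**Figure D3:**
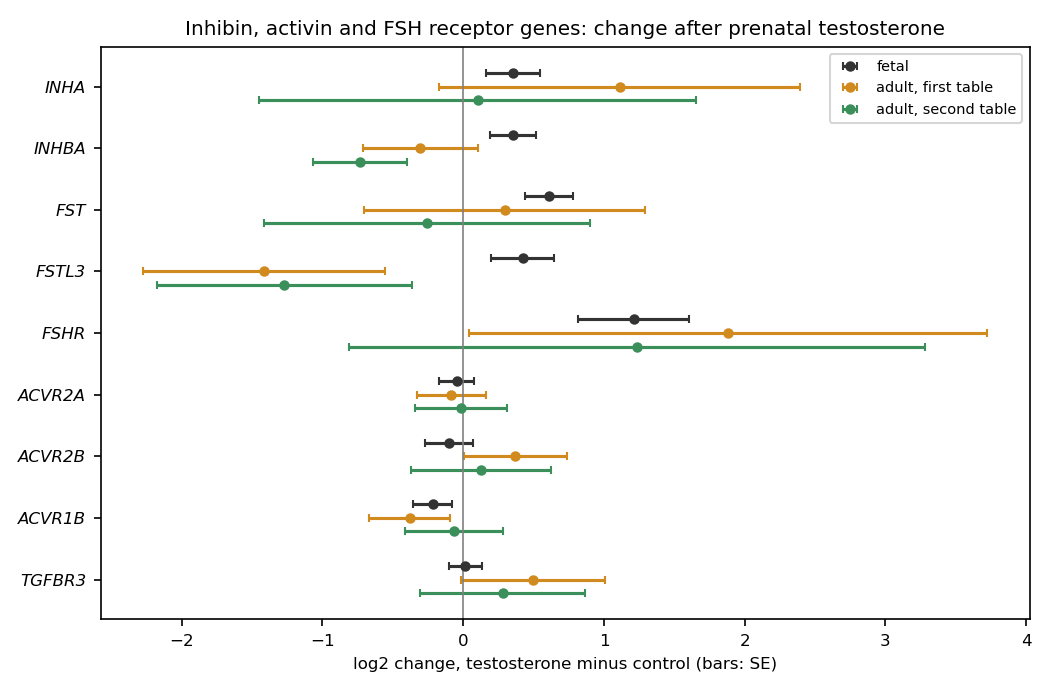
Log2 change, testosterone over control, of the 9 genes in the fetal table and in adult tables I (first) and II (second), with bars of 1 SE from limma. The SE of FSHR is 0.40 in the fetal table and 1.84 and 2.05 in the adult tables. No gene passed the adjusted p of 0.05 in any of the 3. Of the genes above 0 here, INHA and FST in table I and INHA and FSHR in table II were below 0 by edgeR and DESeq2.

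The pathway lists also held 0 called genes in either adult table. The activin and TGF-β list had 11 of 24 measured genes above 0 in table I and 12 of 25 in table II, with medians of -0.061 and -0.0034. TGFB2, which codes for a TGF-β ligand, was at 0.57 and 0.54, and SMAD6, an inhibitory SMAD, was at -0.70 in both. The FSH list had 7 of 21 above 0 in table I and 6 of 21 in table II, with medians of -0.15 and -0.21. VCAN, a matrix proteoglycan of the follicle, was at 0.51 in table I and 0.66 in table II, and PRKACA, the catalytic subunit of the cAMP-dependent kinase, at -0.50 and -0.38, none past the threshold by limma.

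Marker genes set the adult libraries apart in ways the treatment labels did not. OXT, an oxytocin gene that the corpus luteum of sheep is known to express at high levels, had 110586, 22.3, 80.2 and 61704 normalized counts in testosterone 4, 5, 6 and 7, and 69.7, 60.7, 94884 and 48.3 in control 4, 5, 6 and 7. FSHR was 169.8 and 97.5 in testosterone 4 and 7, and 521 in control 6, the 3 libraries of high OXT. In those same 3 libraries FSTL3 was 1037, 797 and 895, and TGFBR3 was 3431, 3024 and 3491, its 3 lowest adult values. Control 4, with low OXT, departed from this: it had the highest FSTL3, at 1700.3, and the lowest FSHR, at 4.72. How many of all genes had their 3 lowest adult values in the libraries of high OXT, as TGFBR3 did, was not counted. The granulosa markers (10 measured) deviated from their mean over the libraries by -0.64, 0.56, 0.63 and -1.34 on the log2 scale in testosterone 4, 5, 6 and 7, and by -1.26, 1.22, -0.41 and 1.23 in control 4, 5, 6 and 7. The order of FSHR followed these deviations in part: control 7 was highest and control 4 lowest for FSHR, while the lowest granulosa value was in testosterone 7. Control 4 also held 95831 normalized counts of DES and 278273 of MYH11, both smooth muscle genes, and the 7 smooth muscle markers summed to 820619 there against 64563 to 195341 over the testosterone libraries and 62111 to 215658 over the other controls. The part of these markers in the members' values was not tested.

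**Figure D4:**
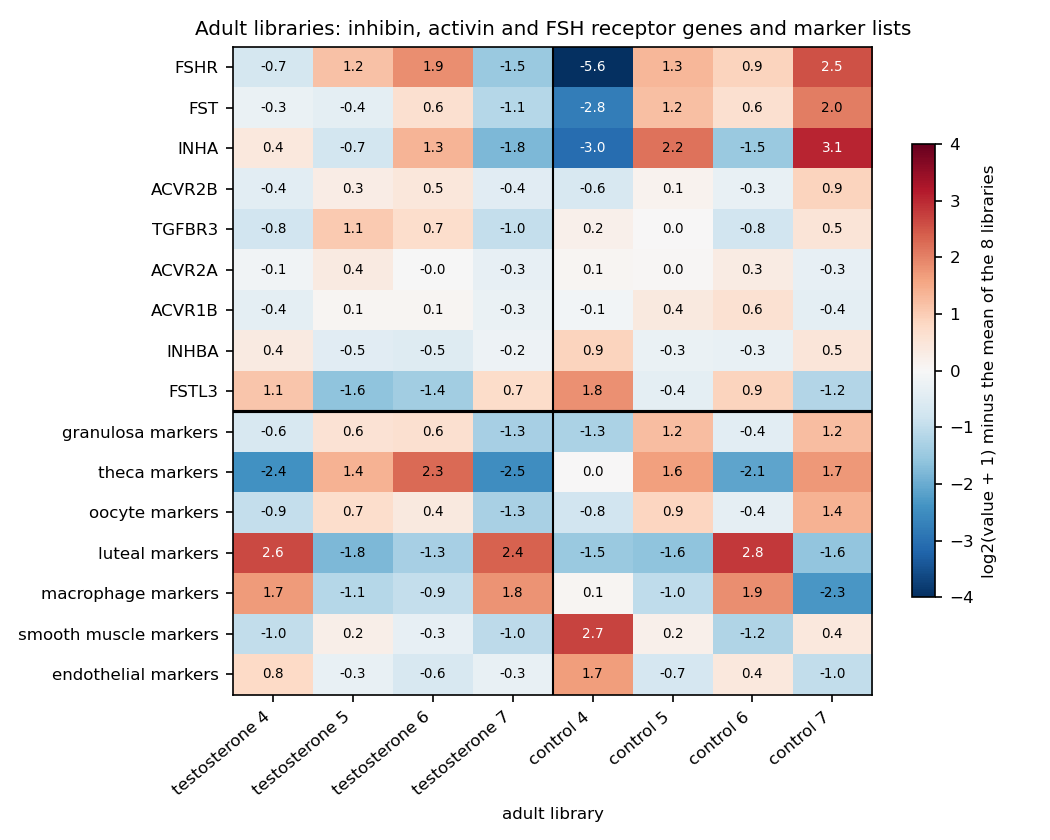
Deviation of each of the 9 genes and of marker lists from its mean over the 8 adult libraries (log2 scale, colours end at 4 in either direction, so control 4 lies beyond the colour range for FSHR), with testosterone libraries on the left and controls on the right. FSHR, INHA and FST are lowest in control 4, and the luteal list is high in testosterone 4 and 7 and in control 6.

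Balances between members within a library do not depend on its size factor. The INHA count divided by the INHBA count was 0.92, 0.72, 3.13 and 0.29 in testosterone 4, 5, 6 and 7, and 0.06, 4.71, 0.38 and 5.15 in control 4, 5, 6 and 7. In the fetal ovary the same ratio stayed within 0.63 to 1.39 in testosterone and 0.70 to 1.22 in control libraries. FST over INHBA was 0.60, 0.96, 2.04 and 0.48 in the adult testosterone libraries and 0.07, 2.57, 1.76 and 2.70 in the adult controls. FSTL3 over FST was 1.06, 0.17, 0.10 and 1.48 in adult testosterone and 9.80, 0.13, 0.49 and 0.04 in adult control libraries, against 1.17 to 1.65 in fetal testosterone and 1.12 to 1.91 in fetal control libraries. The adult ratios spread over a wider range than the fetal ones in both groups, and neither ratio separated the treatments. Gene lengths do not cancel in these ratios, so each is comparable between libraries and not as an amount of protein subunits.

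The treatment effect was then compared between ages as the adult log2 change minus the fetal one. INHBA was at -1.09 (SE 0.45, unadjusted p = 0.0330, adjusted p = 0.9999 by limma) with adult table II and at -0.66 (SE 0.47) with table I. FSTL3 was at -1.84 (SE 0.83, unadjusted p = 0.0478, adjusted p = 0.9994 by limma) with table I and at -1.69 (SE 0.89) with table II. FSHR was at 0.67 (SE 1.64) and 0.03 (SE 1.82), FST at -0.32 and -0.87, and INHA at 0.76 and -0.25 in tables I and II. By edgeR FSHR was at -0.68 with table I and -1.47 with table II, and INHA at -0.50 with table I. The 4 receptor genes ranged from -0.16 to 0.48 with table I and from 0.03 to 0.27 with table II. Of the 9 genes, 0 passed the adjusted p by limma or edgeR, against 0.00657% of all genes by each with table I and 0.00654% by each with table II. At an unadjusted limma p under 0.05 there was 1 of 9 with table I, against 2.07% of all genes, and 1 of 9 with table II, against 1.34%. The fetal libraries are the same in both of these comparisons.

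Levels at the 2 ages are given in RPM, with no test, because the tables were normalized separately and age is confounded with the table. FSHR had a median of 22.4 RPM over 8 adult libraries (0.143 to 68.1) and 0.874 over 6 fetal libraries (0.352 to 1.57). Of the adult libraries 7 were above every fetal one, and control 4 was below them all. FST followed the same split, with a median of 52.4 in adult libraries (5.24 to 204) and 7.76 in fetal libraries (5.75 to 10.1), and again 7 adults above and control 4 below. How many of all genes split in this way was not counted.

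ACVR2A was the only member whose ages did not overlap in RPM, at 12.9 to 22.7 in adult libraries and 26.7 to 34.1 in fetal libraries. The share of all genes whose ages did not overlap was not counted, so how common this pattern was is not known. INHA had 4 adult libraries above and 4 below the whole fetal range of 31.0 to 54.7, with 4.06 to 389 across the adults. FSTL3 ranged from 6.38 to 51.3 in adult and from 8.14 to 16.0 in fetal libraries. INHBA ranged from 35.8 to 75.5 in adult and from 38.99 to 62.8 in fetal libraries. The other receptor genes overlapped too, with ACVR2B at 4.596 to 18.7 in adult and 7.95 to 11.5 in fetal libraries, and ACVR1B at 12.0 to 24.2 in adult and 15.7 to 23.8 in fetal libraries. TGFBR3 ranged from 115 to 504 in adult and from 184 to 243 in fetal libraries.

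By group, mean FSHR was 19.0 ± 17.3 RPM in adult testosterone and 29.0 ± 28.6 in adult control libraries (SD, n = 4 each), and 1.32 ± 0.299 in fetal testosterone and 0.578 ± 0.207 in fetal control libraries (SD, n = 3 each). FST averaged 41.5 ± 22.2 in adult testosterone, 96.6 ± 83.3 in adult control, 9.36 ± 0.975 in fetal testosterone and 6.29 ± 0.854 in fetal control libraries. For both genes the order from high to low was adult control, adult testosterone, fetal testosterone, fetal control, and the 2 adult groups did not differ beyond their spread. ACVR2A averaged 16.6 ± 4.32 in adult testosterone, 16.4 ± 2.85 in adult control, 29.2 ± 2.29 in fetal testosterone and 31.0 ± 3.02 in fetal control libraries, and neither pair within an age differed beyond its spread. Oocyte and germ cell genes also differed in level between the ages: GDF9 ranged from 67.3 to 272 normalized counts in adult and from 1966 to 3613 in fetal libraries, and DDX4 from 21.3 to 83.9 in adult and from 3156 to 6579 in fetal libraries, on separately normalized scales. Their part in the members' values was not tested.

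**Figure D5:**
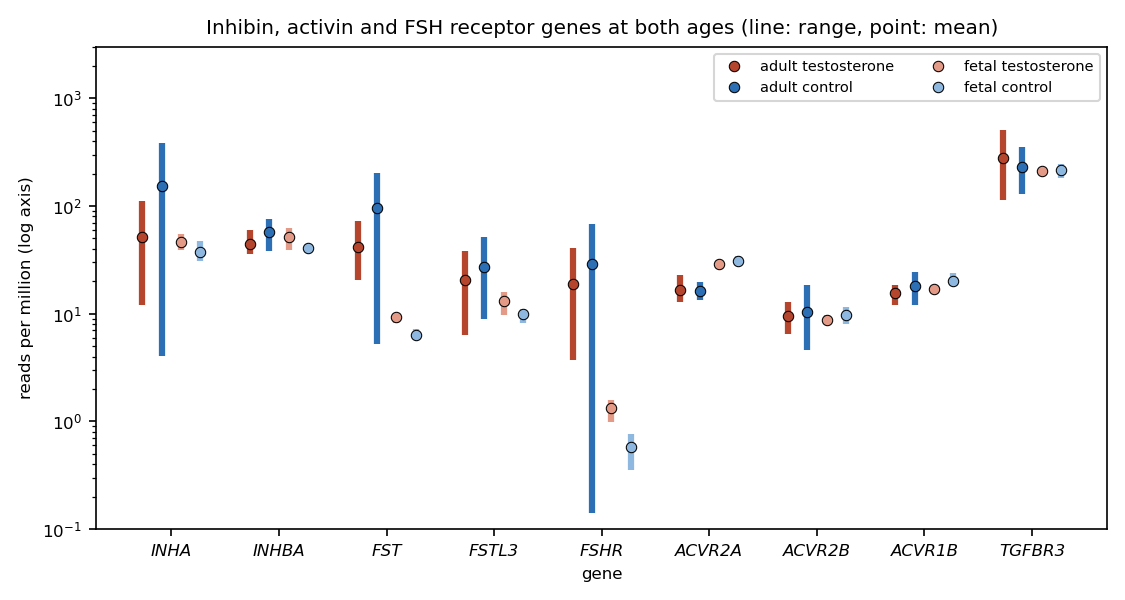
RPM (reads per M reads in the genes listed in all 3 tables) of the 9 genes in the 4 groups (log axis), with adult groups on the left of each gene and testosterone on the left of control; lines run from the lowest to the highest library and points are means (n = 4 adult, n = 3 fetal). The ACVR2A lines of the adult groups lie wholly below those of the fetal groups, and the adult control line of FSHR runs from 0.143 to 68.1.

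Across the adult libraries, some members moved together. Over 8 libraries Pearson's r on the log2 scale was 0.93 between FSHR and FST, 0.79 between FSHR and INHA, and 0.88 between FST and INHA, whereas FSTL3 ran opposite to FSHR at -0.80 and to ACVR2B at -0.91. These are descriptions: the libraries share marker differences, and control 4 is at an end of the range for several of these genes. The named genes most like FSHR across the adult libraries were PARD6B (r = 0.990), CDH2 (0.990), GRIP1 (0.989), PAPSS2 (0.984) and PCLO (0.981), out of 10936 compared. Those most like FST were POLRMT (0.968), PAPSS2 (0.956), MTHFD1 (0.954), ADAMTS7 (0.949) and PEX7 (0.947).

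The genes most like INHA across the adult libraries were RIOX2 (r = 0.982), WDR4 (0.960), CELSR2 (0.959), POMT2 (0.958) and RCC1 (0.955), and those most like INHBA were DPEP3 (0.958), SNAPC5 (0.936), C19orf25 (0.914), NPTX1 (0.910) and CCDC107 (0.907). Over the 6 fetal libraries FSHR was most like CFL1 (0.990), DCN (0.988), IGFBP6 (0.988), NGRN (0.986) and SMARCC2 (0.985), and FST most like ECI1 (0.996), ALDH16A1 (0.982), TAPBP (0.982), EMB (0.978) and AGFG2 (0.977). INHA was most like SLC25A1 (0.990), B3GALT6 (0.987), TCF19 (0.987), DAAM2 (0.987) and PCGF1 (0.986), and INHBA most like STRAP (0.996), HAPLN1 (0.992), DEK (0.989), IRAK1BP1 (0.988) and PLEKHA4 (0.987), out of 11226 compared. With so few libraries high values of r can arise without a link between genes. How many genes reached values of this size was not counted. PAPSS2 was listed for both FSHR and FST in the adult libraries, and no gene was listed for the same member at both ages.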

How the data were processed

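Ovarian RNA of 14 samples was sequenced from 500 ng of RNA with paired reads of 150 bases, per the labels' protocols. The submitters' processing notes name Trimmomatic 0.36 and STAR 2.5.2b. How reads were counted, and on which genome build and annotation, is not given in the sources used here. There are 3 deposited tables with a normalized count signal per library, log2 fold changes, p-values and adjusted p-values, and the series text names DESeq2. In every library 100% of values were whole multiples of a step, within 0.01 of a read, so reads were recovered.

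The deposited signal was tested as log2(value + 1) with limma 3.58.1 in R 4.3.3, with a mean-variance trend, within each table, leaving out genes whose mean was under 10. Fold changes are on that scale and understate changes of low genes. Benjamini-Hochberg adjusted p under 0.05 over all genes tested was the threshold. The difference between ages used array weights per age. As alternatives, edgeR 4.0.16 (quasi-likelihood) and DESeq2 1.42.0 were run on recovered reads, and other pseudocounts (0.5 and 5), no filter, quantile normalization, a replicate block, the 8 adult libraries joined and leaving out each library were tried. Joining used control 6 from the second table, where it has 33.4 M reads, against 26.4 M in the first. The scripts were tested on simulated data. All 10 members are named, with up to 4 genes of smallest p per other list, defining markers, and the 5 named genes of highest Pearson's r with a member. The members and lists were chosen with earlier results of these data known.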

Additional observations from a re-analysis of the deposited data

Results flagged for a closer look

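For 17 genes (the 9 members and 8 defining markers), 34 groups of 4 adult libraries were tested for a single library far from the others. The test used counts without logs, and 5 groups had such a library. Its rate of about 1 in 20 holds for independent, normally distributed values. These counts span wide ranges and several flags fall in the same library, so that rate is no benchmark here. None was a member. OXT had 94884 normalized counts in adult control 6, against 48.3 to 69.7 in the other 3 controls. STAR, which carries cholesterol into mitochondria for steroid synthesis, had 36624 in adult control 6, against 1131 to 3396 in the other controls. CYP17A1 had 2811.4 in adult testosterone 6, against 5.67 to 318 in the other testosterone libraries. INSL3, a theca hormone, had 29961 in adult testosterone 6, against 135 to 2589 in the others. DES had 95831 in adult control 4, against 2553 to 8134 in the other controls.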

How the results depend on the processing

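Depth limits FSHR most: it rested on 9 to 41 reads in the fetal libraries and on 4 in adult control 4. Groups held 3 or 4 libraries, and the SE of an adult log2 change reached 2.05. Of 729 recomputed member values 638 kept their direction, 91 reversed and 0 passed the adjusted p of 0.05, the lowest adjusted p being 0.113 (FST in fetal ovaries, DESeq2). All fetal changes of FSHR, INHA, INHBA, FST, FSTL3 and ACVR1B kept their direction. In the fetal data TGFBR3 was at -0.0014 after quantile normalization. Where a value changed with a setting, the cause was not tested.

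The number of genes called in the fetal comparison was 3 by limma, 261 by DESeq2 and 10 with the replicate block. Without a single library it ranged from 0 to 13: 0 without control 1, testosterone 1 or testosterone 2, 1 without control 2, and 13 without testosterone 3. In adult tables I and II limma called 1 gene each, edgeR 0, DESeq2 4 and 5, the replicate block 0, and the 8 libraries joined 2; without any single library the count was 0 in each. For the difference between ages limma called 1 gene with either table and 0 with the replicate block. Without a single library it was 0 or 1. With table I it was 0 without adult control 6, testosterone 5 or testosterone 6; with table II it was 1 without any of the fetal controls or adult control 7 and 0 otherwise.

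Several adult directions reversed. In table I, INHA was at -0.16 by edgeR, -0.15 by DESeq2 and -0.36 in the joined libraries, FST at -0.35 by edgeR, -0.35 by DESeq2 and -0.57 joined, and ACVR2B at -0.053 joined. In table II, FSHR was at -0.31 by edgeR and -0.29 by DESeq2, INHA at -1.36 by edgeR, -1.34 by DESeq2 and -0.36 joined, ACVR2B at -0.053 joined, and ACVR2A at 0.0057 after quantile normalization. In the joined libraries without control 4, a setting chosen after seeing the data, FSHR was at -1.39, INHA at -1.43, FST at -1.58 and ACVR2B at -0.28. For the difference between ages with table I, edgeR gave -0.68 for FSHR and -0.50 for INHA. With table II, FSHR was at -0.017 with a pseudocount of 5, -0.20 after quantile normalization and -1.47 by edgeR.

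With the replicate block, table II gave -1.53 for FSHR, -1.01 for INHA, -0.30 for ACVR2B and -0.0092 for TGFBR3, and the difference between ages with table II gave -2.75 for FSHR, -0.13 for ACVR2A, -0.20 for ACVR2B and -0.023 for TGFBR3. The labels do not say whether same-numbered samples were related. Deviations of same-numbered samples correlated at 0.13, 0.0093 and 0.403 in fetal libraries. They correlated at -0.151, 0.329 and -0.481 in table I and at -0.458 and -0.336 in table II. Differently numbered samples gave -0.343 to 0.272 in fetal libraries, -0.554 to 0.642 in table I and -0.431 to 0.547 in table II. The fetal 0.403 was above every other fetal pair, so these values do not settle whether the numbers mark pairs.

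Leaving out each library in turn gave changed directions at these ranges. In fetal ovaries they were -0.11 to 0.047 for ACVR2A, -0.22 to 0.012 for ACVR2B and -0.12 to 0.10 for TGFBR3. In table I they were -0.37 to 3.11 for FSHR, -0.025 to 2.58 for INHA, -0.59 to 0.085 for INHBA, -0.93 to 1.05 for FST and -0.23 to 0.013 for ACVR2A. In table II they were -1.21 to 2.86 for FSHR, -1.17 to 1.87 for INHA, -1.62 to 0.77 for FST, -0.20 to 0.15 for ACVR2A, -0.19 to 0.57 for ACVR2B, -0.28 to 0.23 for ACVR1B and -0.12 to 0.90 for TGFBR3. For the difference between ages with table I they were -1.58 to 1.90 for FSHR, -0.38 to 2.22 for INHA, -1.55 to 0.44 for FST, -0.18 to 0.059 for ACVR2A and -0.37 to 0.0041 for ACVR1B. With table II they were -2.42 to 1.65 for FSHR, -1.53 to 1.51 for INHA, -2.23 to 0.16 for FST, -0.16 to 0.20 for ACVR2A, -0.090 to 0.67 for ACVR2B, -0.063 to 0.45 for ACVR1B and -0.13 to 0.89 for TGFBR3.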
